A study of Mus musculus with 11 samples.

Results

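Pyruvate dehydrogenase and the tricarboxylic acid (TCA) cycle were followed here through 9 genes of the deposited table of 25311: Pdha1, Dlat, Cs, Idh3a, Idh3b, Ogdh, Suclg1, Fh1 and Mdh2. They were chosen by name, as the rows of these genes in the count table, and all 9 were found. Retinas of C57BL/6J mice at postnatal day 10 were dissociated with papain and profiled cell by cell with inDrop v3, which tags each captured RNA with a unique molecular identifier (UMI) so that copies made by PCR are counted once. The control mice received PBS and the mice set against them received streptozotocin (STZ), with n = 3 mice each. STZ raises blood glucose and served as the model of Phase I retinopathy of prematurity (Phase I ROP). A separate set held STZ mice whose nursing dams ate a diet enriched in ω-3 (n = 2 mice) or ω-6 (n = 3 mice) long-chain polyunsaturated fatty acids. No PBS mice were on either diet. STZ destroys insulin-producing cells and acts on the whole body, and the diets reached the pups through the dams. The paper describes these mice as littermates, but also reports smaller litters for STZ-treated mice than for mice without STZ. The sources used here do not tie pups to dams. Litter therefore cannot be told apart from treatment, nor nursing dam from diet, and the p-values measure the spread between these mice.

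Pyruvate, the end product of glycolysis, enters the mitochondrion and is converted to acetyl-CoA by the pyruvate dehydrogenase complex. The TCA cycle condenses acetyl-CoA with oxaloacetate, oxidises the product step by step and hands the electrons to the respiratory chain as NADH and FADH2. Photoreceptors pack mitochondria into their inner segments, yet send much of their glucose to lactate, and mutations of the human counterpart of Idh3b, IDH3B, cause retinitis pigmentosa.

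Cells were assigned to classes by clustering and canonical markers, which gave 10178 rods, 1126 cones, 3596 bipolar cells, 3287 amacrine cells and 1425 Müller glia among 20033 cells. None of the 9 genes was among the 2000 variable genes that formed the clusters. The rod markers summed to between 11650 and 52880 CPM (the count of a gene scaled to a common library size) in the rods of control and STZ mice, against at most 2765 CPM in bipolar cells, amacrine cells and Müller glia. Cones did not stand apart from rods in this sum, with 9302 to 13200 CPM in control and 17750 to 23020 CPM in STZ mice. Of the rods, 2686 cells in 7 clusters, and of the amacrine cells 1484 cells in 2 clusters, lacked a marker among their 10 leading genes, so their name rests on how many cells held marker UMIs, a weaker basis. Control cones were few, 13 to 46 cells per mouse, and 1157 of 18872 barcodes occurred in more than 1 library.

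The control libraries stood apart from the STZ libraries. Genes that respond to tissue dissociation summed to 327 to 636 CPM in the control mice and 2555 to 3628 CPM in the STZ mice. RNAs without poly(A) tails, led by the mitochondrial ribosomal RNAs, summed to 36020 to 54550 CPM in the control mice and 4779 to 9333 CPM in the STZ mice. Rods were 28.1% to 35.8% of control cells and 47.5% to 55.4% of STZ cells. Median UMIs per cell were 1549 to 2341 in control and 1002 to 1187 in STZ libraries. These differences divide the libraries as the treatment does and cannot be told apart from it.

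Promoter sequences were available for 8 of the 9 genes in RefSeq (GRCm38.p6), each reaching from 250 bases before to 50 bases after a start. Of the members whose level passed the test between STZ and control mice in all cells, the 4 that hold a match to a searched motif are printed, so that the gene that rose (Ogdh) can be read beside 3 that fell. Capitals mark the matches. The motifs were searched on both strands, with the letters GGGCGG for SP1, CCGGAAG for GABPA, GCGCANGCG for NRF1 and TCAAGGTCA for the estrogen-related receptors.
Ogdh, chr11:6291347-6291646, plus strand: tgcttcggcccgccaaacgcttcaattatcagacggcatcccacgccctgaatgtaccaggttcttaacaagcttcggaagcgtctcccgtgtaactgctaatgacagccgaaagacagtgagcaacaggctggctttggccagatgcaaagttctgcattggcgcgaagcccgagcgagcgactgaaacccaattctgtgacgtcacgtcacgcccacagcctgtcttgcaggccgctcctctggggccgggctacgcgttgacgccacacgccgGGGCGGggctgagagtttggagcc
Mdh2, chr5:135778399-135778698, plus strand: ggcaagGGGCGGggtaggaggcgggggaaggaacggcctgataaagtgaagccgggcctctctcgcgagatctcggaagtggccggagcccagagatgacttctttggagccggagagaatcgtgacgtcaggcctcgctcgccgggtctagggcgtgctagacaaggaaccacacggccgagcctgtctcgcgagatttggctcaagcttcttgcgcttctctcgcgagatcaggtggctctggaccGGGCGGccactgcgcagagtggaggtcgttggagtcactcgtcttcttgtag
Fh1, chr1:175625586-175625885, minus strand: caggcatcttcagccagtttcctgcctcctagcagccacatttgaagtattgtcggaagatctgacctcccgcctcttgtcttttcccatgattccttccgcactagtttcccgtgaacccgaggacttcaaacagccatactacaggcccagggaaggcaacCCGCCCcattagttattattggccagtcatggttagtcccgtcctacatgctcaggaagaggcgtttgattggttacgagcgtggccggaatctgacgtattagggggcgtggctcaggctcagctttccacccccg
Idh3b, chr2:130284402-130284701, minus strand: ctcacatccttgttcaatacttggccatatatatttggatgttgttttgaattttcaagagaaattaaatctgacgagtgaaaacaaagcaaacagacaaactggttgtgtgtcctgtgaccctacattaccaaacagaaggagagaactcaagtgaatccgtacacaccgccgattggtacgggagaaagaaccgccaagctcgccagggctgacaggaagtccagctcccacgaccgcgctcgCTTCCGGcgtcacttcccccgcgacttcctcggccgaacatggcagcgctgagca

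The SP1 letters occurred in 5 of the 8 members, Dlat, Cs, Ogdh, Fh1 and Mdh2, and in 35.7% of 32851 promoters in the table. A member counts here with a match at any of its starts, 13 over the 8 members, whereas the percentages are of single promoters. The GABPA letters occurred in Idh3b among the members and in 8.86% of all promoters, and the NRF1 letters at downstream starts of Ogdh and in 6.25%. The letters of the estrogen-related receptors were found in none of the 8 members and in 0.423% of all promoters. The SP1 letters lie in the printed windows of Ogdh, which rose, as well as in those of Mdh2 and Fh1, which fell. The printed window of Ogdh is that of the first of 6 starts, and its match lies after that start. At some further starts of Ogdh an SP1 match lies before the start. Of the 2 matches of Mdh2, 1 spans the start. In each printed promoter the capitals belong to 1 motif, so that no matches of different motifs overlap.

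To ask how these genes differed between Phase I ROP and control retinas, UMIs were summed per mouse over all cells and compared by the quasi-likelihood test of edgeR, with p-values adjusted by the Benjamini-Hochberg method. Ogdh, the decarboxylating subunit of the oxoglutarate dehydrogenase complex, rose in STZ mice, while Fh1, Mdh2, Idh3a, Suclg1 and Idh3b fell. Pdha1, Dlat and Cs did not pass the test. Thus 6 of 9 members were called, beside 48.1% of 15964 genes tested, with 1 member higher (24.7% of all genes) and 5 lower (23.4%). The share of members called lower stood above that of all genes, and the median log2 fold change was -0.46 over the members and 0.001 over all genes tested. Sums over all cells mix the classes, so that fewer cells of a type and less RNA per cell cannot be told apart in them.

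**Figure D1:**
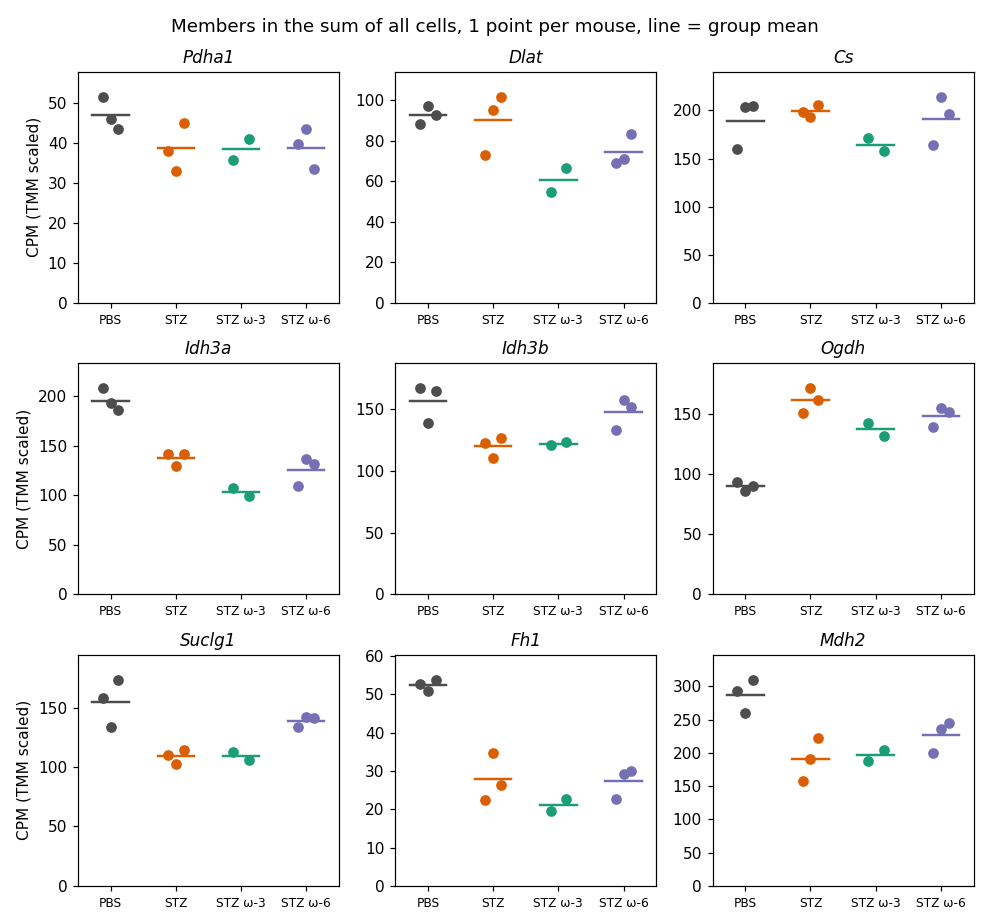
Each panel plots 1 member, with the level in the sum of all cells (CPM after TMM scaling, linear axis from 0) for each of 11 mice by group and a line at the group mean. Ogdh is higher in all 8 STZ-treated mice than in the 3 PBS mice, Fh1, Idh3a and Mdh2 are lower in all 8, and Cs overlaps.

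At the entry to the cycle the members Pdha1, Dlat and Cs were not called, while Dld, Pdhb, Mpc1 and Mpc2, given below, were called lower. The log2 fold change of Pdha1 (-0.35) was close to that of Pdhb (-0.39). Pdhx of the pyruvate dehydrogenase complex was not called either, at 0.42 (adjusted p = 0.0636). Pdha1 (chromosome X, 160122209 to 160138413, minus strand, GRCm38), the catalytic E1 subunit that phosphorylation switches off, stood at 51.6, 46.1 and 43.5 CPM in the control mice and 38.02, 33.0 and 45.0 CPM in the STZ mice. The highest STZ mouse lay above the lowest control mouse, by so little that the groups no longer overlapped (43.7 CPM in the lowest control and 43.1 CPM in the highest STZ mouse) when the levels were scaled over these 6 mice as in the test. The log2 fold change of -0.35 ± 0.16 (SE) had an adjusted p of 0.0872. Exons of Pdha1 overlap those of Map3k15 on the other strand, as exons of Idh3b overlap those of Nop56, and how the counting treated strand is not given in the sources used here. Dlat (chromosome 9, 50634633 to 50659780, minus strand), the E2 core of the complex, read 88.6, 97.4 and 92.6 CPM in control and 73.1, 95.4 and 102 CPM in STZ mice, which spanned the control range (log2 fold change -0.12 ± 0.14, adjusted p = 0.500). Cs (chromosome 10, 128337734 to 128362479, plus strand) encodes citrate synthase, the enzyme of the first step of the cycle. Its levels of 160, 204 and 205 CPM in control and 199, 194 and 205 CPM in STZ mice overlapped almost fully, at a log2 fold change of -0.0054 ± 0.13 (adjusted p = 0.976).

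The members of the oxidative steps from isocitrate to succinyl-CoA moved in opposite directions, Idh3a and Idh3b lower and Ogdh higher. Idh3a (chromosome 9, 54586334 to 54604661, plus strand) encodes the catalytic subunit of the NAD-dependent isocitrate dehydrogenase and was 208, 193 and 186 CPM in the control mice and 141, 130 and 142 CPM in the STZ mice. No STZ mouse reached a control mouse, and Idh3a fell by 0.58 ± 0.11 on the log2 scale (adjusted p = 0.00156). Idh3b (chromosome 2, 130279309 to 130284547, minus strand), a further subunit of the same enzyme, was 167, 139 and 165 CPM in control and 122, 110 and 127 CPM in STZ mice, again without overlap. Its log2 fold change was -0.46 ± 0.12 (adjusted p = 0.00776), and without STZ mouse 2 it was -0.38 with an adjusted p of 0.0521, beyond the threshold. Ogdh (chromosome 11, 6291633 to 6356642, plus strand), which acts on the next substrate, was 93.7, 85.7 and 90.0 CPM in the control mice and 151, 172 and 161 CPM in the STZ mice. These 3 STZ mice all lay well above the control mice, with a log2 fold change of 0.77 ± 0.12 (adjusted p = 0.000299).

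The members of later steps, Suclg1, Fh1 and Mdh2, were lower in STZ mice. Suclg1 (chromosome 6, 73248382 to 73276911, plus strand), the alpha subunit of succinyl-CoA ligase, was 158, 133 and 174 CPM in control and 110, 102 and 115 CPM in STZ mice. The groups were separate, with a fall of 0.58 ± 0.12 on the log2 scale (adjusted p = 0.00248). Fh1 (chromosome 1, 175600374 to 175625635, minus strand) encodes fumarase, which hydrates fumarate to malate, and went from 52.8, 50.9 and 53.8 CPM in control to 22.5, 34.8 and 26.4 CPM in STZ mice. Fh1 had the lowest fold change of the 9, -0.997 ± 0.18 on the log2 scale (adjusted p = 0.000784), and its control mice differed by less than 3 CPM among themselves. Mdh2 (chromosome 5, 135778480 to 135790398, plus strand), the mitochondrial malate dehydrogenase that closes the cycle, was 293, 260 and 310 CPM in control and 158, 191 and 222 CPM in STZ mice. The STZ mice again lay below the control mice, at -0.67 ± 0.13 on the log2 scale (adjusted p = 0.00149).

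The STZ mice on the diets, which were not compared with the control mice by a test, are given beside these values. Ogdh was 143 and 132 CPM on ω-3 and 140, 155 and 152 CPM on ω-6, above each control mouse. Fh1 was 19.6 and 22.6 CPM on ω-3 and ran from 22.6 to 30.1 CPM on ω-6, below each control mouse. For Suclg1 the ω-6 mice, at 134 to 142 CPM, lay in the lower part of the control range of 133 to 174 CPM. For Idh3b the ω-6 mice at 157 and 152 CPM lay within the control range, and that at 133 CPM lay below the lowest control mouse (139 CPM).

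Within rods, Fh1, Idh3a, Mdh2 and Suclg1 fell and Ogdh rose, so that 5 of 9 members were called, beside 41.1% of 8425 genes. The 1 higher and 4 lower members stand beside 20.4% of genes higher and 20.7% lower, and the median was -0.39 over the members and 0.026 over all genes. For rods and cones the levels of control and STZ mice are given on the scale of the test, since scaling over all 11 mice put the log2 difference between the groups higher by 0.34 in rods and 0.309 in cones, and by at most 0.0768 in the other sums. Ogdh was 75.3, 46.1 and 74.6 CPM in control rods and 130.1, 128 and 146 CPM in STZ rods, without overlap, with a log2 fold change of 1.01 ± 0.26 (adjusted p = 0.00485). This call was lost when the sums held the clusters led by rod markers alone (0.68, adjusted p = 0.0669) and when they were thinned to equal depth (0.74, adjusted p = 0.0752). Fh1 was 44.5, 67.1 and 32.0 CPM against 12.5, 23.8 and 14.1 CPM, without overlap, at -1.48 ± 0.43 (adjusted p = 0.0102). Mdh2 (-0.75 ± 0.21, adjusted p = 0.00892) and Idh3a (-0.88 ± 0.25, adjusted p = 0.00819) each had groups without overlap on this scale, and groups that overlapped when scaled over 11 mice. Suclg1 (-0.71 ± 0.25, adjusted p = 0.0299) ranged from 126 to 257 CPM in control rods, which overlaps the STZ rods at 119 to 135 CPM. Each of these 4 lower calls was also lost under at least 1 alternative. Over the alternatives the adjusted p reached 0.0644 for Fh1, 0.346 for Mdh2, 0.2045 for Idh3a and 0.3953 for Suclg1. The rods of the groups were spread differently over the same clusters. The 7 clusters named on the weaker basis held 492 of 1028 control rods (47.9%) and 413 of 3003 STZ rods (13.8%), and the largest rod cluster held 494 (48.1%) and 2475 (82.4%), and their part in the rod values was not tested beyond the sums without the 7 clusters.

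Citrate synthase did not pass the test in rods. Cs was 103, 143 and 151 CPM in control rods and 205, 179 and 206 CPM in STZ rods, groups that did not overlap. The log2 fold change of 0.57 ± 0.23 missed the threshold with an adjusted p of 0.0574, and over the alternatives its adjusted p ran from 0.0123 to 0.146. Pdha1 was low in rods, with 10.3, 16.8 and 4.26 CPM in control and 18.3, 20.9 and 19.4 CPM in STZ mice, and did not pass the test (1.06 ± 0.54, adjusted p = 0.120). Control rods held as few as 2 UMIs of a member. Dlat (0.069 ± 0.27, adjusted p = 0.856) and Idh3b (-0.39 ± 0.26, adjusted p = 0.240) were not called. With no filter on low counts 2 members were called, both higher, beside 4772 of 23260 genes. Leaving out STZ mouse 1, 2 or 3 left 1, 2 or 3 calls, beside 3088 of 8963, 2897 of 8867 and 2618 of 8867 genes. In rods the summed rod markers themselves went from 11650 to 26420 CPM in control to 38930 to 52880 CPM in STZ mice, and the part of this in the members' values was not tested.

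**Figure D2:**
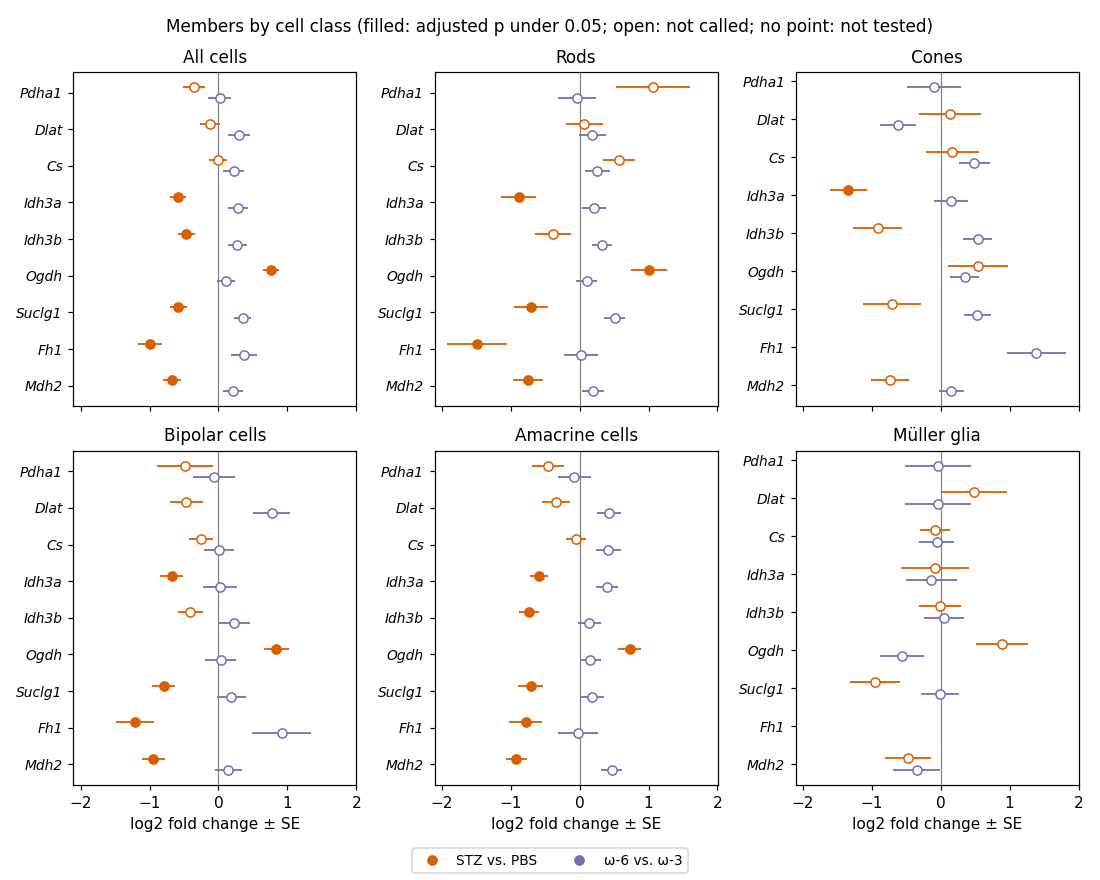
Each panel is a cell class, with the log2 fold change ± SE of each member on the horizontal axis, for STZ vs. PBS (orange) and ω-6 vs. ω-3 (violet), filled where the adjusted p was under 0.05. Ogdh lies right of 0 and Mdh2 and Suclg1 left of 0 for STZ vs. PBS in all 6 panels, and no violet point is filled.

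In bipolar cells, Mdh2, Suclg1, Fh1 and Idh3a fell and Ogdh rose, 5 of 9 members beside 45.3% of 10019 genes, with 21.3% of all genes higher and 23.9% lower. Mdh2 was 314, 324 and 395 CPM in control and 151, 228 and 178 CPM in STZ mice, a fall of 0.94 ± 0.16 on the log2 scale (adjusted p = 0.00039). The lowest control mouse lay above the highest STZ mouse. Suclg1 changed by -0.80 ± 0.17 (adjusted p = 0.00177), Fh1 by -1.21 ± 0.28 (adjusted p = 0.00298), Idh3a by -0.68 ± 0.16 (adjusted p = 0.00378) and Ogdh by 0.84 ± 0.18 (adjusted p = 0.00215). Idh3b (-0.41), Pdha1 (-0.48), Dlat (-0.47) and Cs (-0.25) were below 0 without passing the test. The members' median was -0.48, and that of all genes 0.024.

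In amacrine cells the same direction was called for 6 of 9 members beside 38.8% of 11315 genes, 1 higher (18.3% of all genes) and 5 lower (20.5%), at a median of -0.59 against 0.021 over all genes. Idh3b fell here by 0.73 ± 0.15 (adjusted p = 0.00153), from 209, 204 and 162 CPM in control to 122, 117 and 125 CPM in STZ mice. Mdh2 was 344, 272 and 296 CPM in control and 141, 164 and 203 CPM in STZ mice (-0.92 ± 0.15, adjusted p = 0.000365). Both genes were lower in each STZ mouse than in any control mouse. Idh3a (-0.59), Suclg1 (-0.71) and Fh1 (-0.78) also fell, with adjusted p-values of 0.00294, 0.0066 and 0.0184, and Ogdh rose by 0.73 ± 0.17 (adjusted p = 0.00329). Without STZ mouse 3 the adjusted p of Fh1 was 0.0911, and with the 3 clusters led by amacrine markers alone that of Idh3a was 0.061. Rod markers in the amacrine sums went from 360 to 476 CPM in control to 838 to 1322 CPM in STZ mice, with 9 of 11 called higher, and their part in these values was not tested.

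In cones, 7 members had counts for a test, and Idh3a was called, 1 of 7 beside 18.8% of 3125 genes, with 10.9% of all genes higher and 7.9% lower. Idh3a was 749.9, 1204 and 771 CPM in control cones and 477.5, 280 and 298 CPM in STZ cones, a log2 fold change of -1.34 ± 0.27 (adjusted p = 0.00149). Each control mouse lay above each STZ mouse. Scaled over all 11 mice, Idh3a was 231 to 393 CPM in STZ cones, 154 and 136 CPM on ω-3 and 107 to 223 CPM on ω-6. On that scale the rod markers in the cone sums rose from 9302 to 13200 CPM in control to 17750 to 23020 CPM in STZ mice, with 8 of 11 called higher, and stood at 31140 to 42930 CPM on the diets. The cone markers went from 24560 to 32470 CPM to 17300 to 20380 CPM, with 4 of 9 called lower, and were 10610 to 12160 CPM on the diets. The part of both in the value of Idh3a was not tested. Mdh2 (-0.73 ± 0.28, adjusted p = 0.0653), Idh3b (-0.91 ± 0.36, adjusted p = 0.0717), Suclg1 (-0.71), Ogdh (0.54), Cs (0.17) and Dlat (0.14) were not called. With classes by marker score, 3 of 8 members were called in cones, beside 1227 of 4236 genes. These were Idh3a, Mdh2 (-0.84, adjusted p = 0.0166) and Ogdh (1.06, adjusted p = 0.0431). Pdha1 and Fh1 were not tested in cones, where control mice held as few as 1 UMI of a member.

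In Müller glia, 0 of 7 members were called by edgeR, beside 10.8% of 4855 genes. DESeq2 also called 0, beside 309 of the 4855 genes. By edgeR, 2 members had an unadjusted p under 0.05, beside 27.3% of the genes. These 2 were Ogdh (0.89 ± 0.38, adjusted p = 0.141), with 118, 54.2 and 42.02 CPM in control and 128, 156 and 99.0 CPM in STZ glia, and Suclg1 (-0.96 ± 0.36, adjusted p = 0.105), with 110, 181 and 115 CPM in control and 86.6, 36.6 and 73.3 CPM in STZ glia. The Suclg1 groups did not overlap, and those of Ogdh did. Mdh2 stood at -0.47, Dlat at 0.49, and Cs, Idh3a and Idh3b between -0.09 and 0, with standard errors of 0.22 to 0.50. Pdha1 and Fh1 were not tested.

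Whether the difference between STZ and control mice varied between rods, bipolar cells, amacrine cells and Müller glia was tested in 1 model with a term for each mouse. Of the 7 members with counts in all 4 classes, Cs was called (adjusted p = 0.0431), beside 18.7% of 4105 genes. Its difference was lower than in rods by 0.68 for bipolar cells, 0.54 for amacrine cells and 0.77 for Müller glia (log2 scale). With median-of-ratios scaling, and without any 1 of the 6 mice, this call was lost, with adjusted p-values of up to 0.247. For Ogdh, Mdh2, Suclg1, Idh3a, Idh3b and Dlat the adjusted p was 0.508 to 0.926, so a difference between classes was not shown for them.

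Levels of each gene were set side by side across classes as a description, since the classes were formed from the same cells. The order is that of the medians over 11 mice, 8 of them treated with STZ, with CPM scaled over the 11 mice within each class. On that scale the highest median in the 3 control mice alone was in rods for Mdh2 (343 CPM, with 324 in bipolar cells and in cones) and Suclg1 (204 CPM). It was in bipolar cells for Fh1 (70.1 CPM), in amacrine cells for Dlat (120 CPM) and Idh3b (204 CPM), and in the class named below for the others. This order depends on the scaling. On the scale of the test, control medians were higher in cones than in rods for Mdh2 (516 and 397 CPM) and Suclg1 (250 and 241 CPM). Cones also came first for Fh1 (107 CPM, 70.0 in bipolar cells), Idh3b (310 CPM, 210 in amacrine cells) and Pdha1 (71.4 CPM, 67.4 in amacrine cells). The control cone values rest on few UMIs, with 3, 2 and 7 of Fh1, 2, 6 and 3 of Pdha1 and 7, 2 and 23 of Suclg1. Pdha1 ran from 46.25 to 206.4 CPM in control cones, so such medians do not settle an order. For Dlat, bipolar cells, amacrine cells and cones stood at 124, 123 and 123 CPM. Idh3a was highest in cones in the median of 11 mice, 230 CPM (107 to 755), followed by amacrine cells at 176, bipolar cells at 124, rods at 97.1 and Müller glia at 60.8 CPM. Cones lay above Müller glia in all 11 mice, and amacrine cells above bipolar cells in all 11, though ranges of neighbours in this order overlapped. Mdh2 was likewise highest in cones (282 CPM, 223 to 428), then in rods (255), bipolar cells (210) and amacrine cells (203), and lowest in Müller glia (120 CPM, 48.0 to 174), below the lowest cone value in each mouse.

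Dlat was 33.0 CPM (16.0 to 77.9) in Müller glia and below rods (69.2 CPM) in all 11 mice, with cones (94.7), amacrine cells (88.6) and bipolar cells (83.2) above and not separate from each other. Cs had another order, with Müller glia first at 216 CPM (191 to 273), then amacrine cells (137 to 249), bipolar cells at 181 and cones and rods at 175 CPM each, and every pair of neighbours overlapped. Pdha1 was lowest in rods, 19.7 CPM (3.61 to 27.4), and highest in amacrine cells, 49.6 CPM (39.6 to 66.4), 2 ranges that did not meet. Its values in cones (45.1), bipolar cells (36.9) and Müller glia (36.4) lay within each other's spread.

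Ogdh was 202 CPM in cones (21.6 to 245), 146 in amacrine cells, 134 in bipolar cells, 132 in rods and 94.8 in Müller glia, and Suclg1 went from 158 in cones over rods (140), bipolar cells (114) and amacrine cells (105) to 96.0 in Müller glia. For both, each neighbour in the order overlapped the next. Fh1 ranged from 39.2 CPM in cones to 15.6 CPM in Müller glia, and Idh3b from 156 CPM in cones to 120 CPM in Müller glia. With classes by marker score, all 45 of these medians moved by less than 1 SD over the 11 mice. That SD includes the differences between the groups and is a wide limit for some, such as 210 CPM for Idh3a in cones.

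**Figure D3:**
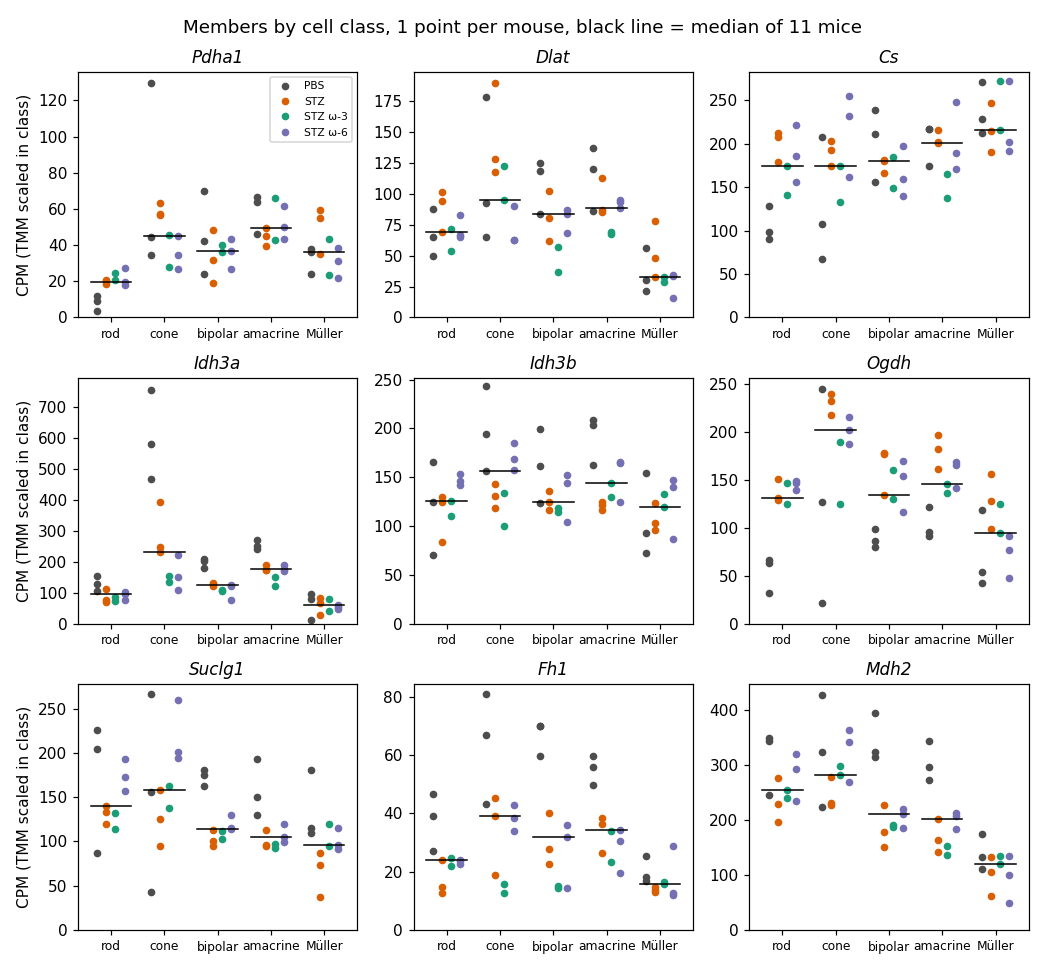
Each panel plots 1 member in 5 cell classes, with 1 point per mouse (CPM after TMM scaling over the 11 mice within the class, linear axis from 0), coloured by group, and a black line at the median of 11 mice. Idh3a in the 3 PBS cone sums stands at 468 to 755 CPM, above every other class and group, while Cs is highest in Müller glia.

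Other genes of the pathway are given by lists, to be read against the 48.1% of genes called in all cells, 24.7% higher and 23.4% lower. Of 12 other subunits and enzymes of the complex and cycle reported here, 6 fell in all cells of STZ mice, at a median of -0.44 over the 12. Idh3g, the gamma subunit of the NAD-dependent isocitrate dehydrogenase, went from 72.1 to 96.6 CPM in control to 36.0 to 42.6 CPM in STZ mice (-1.15 ± 0.15, adjusted p = 8.89e-05). Dld, the E3 subunit shared by the pyruvate and oxoglutarate complexes (-0.93), Sucla2 of succinyl-CoA ligase (-0.74) and Sdhb of succinate dehydrogenase (-0.69) also fell, as did Sdhc (-0.46) and Pdhb (-0.39). Ogdhl and Dlst, the paralog and the partner of Ogdh, were not called (-0.41 and 0.16).

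Among 9 regulators of the complex and pyruvate carriers, Mpc2 (-1.07 ± 0.12, adjusted p = 3.42e-05) and Mpc1 (-0.73 ± 0.12, adjusted p = 0.000378) fell. The 2 genes form the mitochondrial pyruvate carrier, and Mpc2 went from 206 to 221 CPM in control to 97.9 to 118 CPM in STZ mice. Pdk2, a kinase that inactivates pyruvate dehydrogenase, rose by 0.56 ± 0.19 (adjusted p = 0.0296). The other 6 were not called. Of 9 tested genes of the pyruvate and lactate branch, Ldhb (-0.89), Acss2 (-0.91) and Ldha (-0.39) fell, while Acly (0.75), Me1 (0.98) and Me2 (1.04) rose. Acly cleaves cytosolic citrate and the malic enzymes Me1 and Me2 turn malate into pyruvate.

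Of 12 genes reported for cytosolic and NADP-linked paralogs and the malate-aspartate shuttle, 2 fell and 3 rose. Mdh1, the cytosolic malate dehydrogenase, went from 767 to 795 CPM to 400 to 436 CPM (-0.96 ± 0.11, adjusted p = 3.84e-05), and Idh2 by -0.55. Got1 (0.84), Aco1 (0.88) and Slc25a12 (0.64) rose. Both malate dehydrogenases were thus lower, while the cytosolic aminotransferase Got1 was higher. Of 15 genes for mitochondrial import, chaperones and porins, Vdac3 (-0.79), Phb (-0.57), Timm23 (-0.41) and Vdac1 (-0.40) fell, Tomm70a (0.46) and Tomm20 (0.37) rose and 9 were not called, at a median of -0.02.

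All 22 dissociation response genes rose in all cells, at a median of 3.09, led by Nr4a1 (5.60), Fosb (7.20), Klf6 (3.31) and Jun (3.13), and all 5 RNAs without poly(A) tails fell, at a median of -5.82. Rn7sk (-5.82), Rpph1 (-6.10), mt-Rnr2 (-2.88) and mt-Rnr1 (-2.48) were the lowest in adjusted p. The part of these shifts in the members' values was not tested.

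The fold changes of the members went with the length of their annotated transcripts. The genes with the 3 shortest transcripts, Mdh2 (1456 bases), Suclg1 (1519) and Idh3b (1616), all fell, and Ogdh, with the longest (4127), rose. Spearman's rho between length and log2 fold change in all cells was 0.80 over the 9 members and 0.44 over the 21 members and other subunits, as descriptions over genes of the same libraries. Over 15613 genes with a length, rho was 0.37, with a median log2 fold change of -0.45 in genes under 2000 bases and 0.36 in genes of 4000 bases or more. The same sign was found in each class, with rho over all genes of 0.23 in rods to 0.48 in cones and amacrine cells. Fh1 (2636 bases) and Dlat (4035 bases, -0.12) lay away from that order. Length was measured from the annotation and not from these libraries, and its part in the members' values was not tested.

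**Figure D4:**
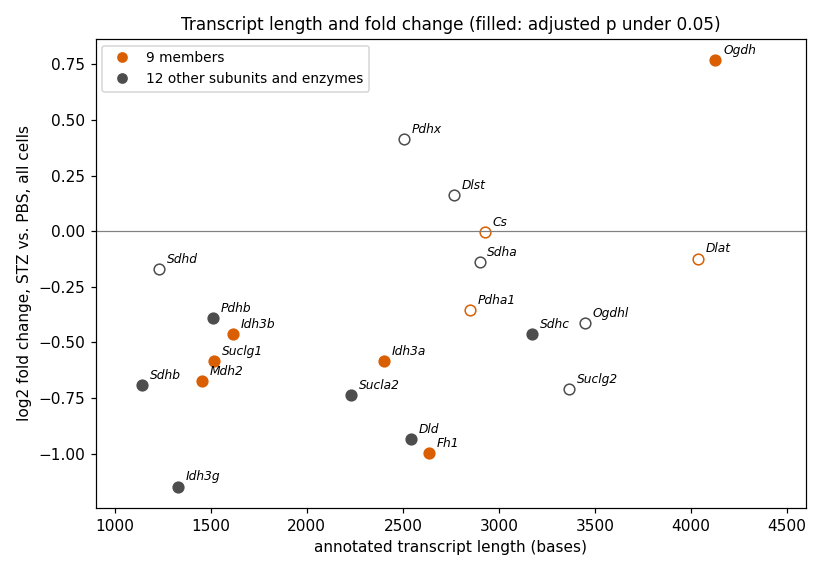
The annotated transcript length (bases) of the 9 members and 12 other subunits and enzymes is on the horizontal axis and the log2 fold change of STZ vs. PBS in all cells on the vertical axis, with filled points where the adjusted p was under 0.05. Ogdh, at 4127 bases, is highest, and the 11 filled points below 0 lie at 3171 bases or less.

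The genes whose levels were most like those of the members were sought over 55 sums, 5 classes in 11 mice, among 4267 genes with a mean of at least 50 CPM. The sums share mice and classes, so the correlations of log2 CPM are descriptions. Nearest to the members' mean were Atp6v0b (r = 0.869), Got2 (0.835), Hagh (0.827), Chgb (0.818) and Scg5 (0.798). Among the members themselves, Dlat went with Mdh2 (r = 0.605) and Idh3a (0.571), and Mdh2 with Suclg1 (0.582), whereas Cs went against Idh3a (-0.467) and Ogdh had no r with a member above 0.390. The nearest gene was Trappc2l for Mdh2 (0.869), Timm29 for Ogdh (0.844), Gadd45gip1 for Suclg1 (0.840), Tmsb10 for Idh3a (0.823), Rd3l for Dlat (0.803), Kpnb1 for Cs (0.780) and Atp5f1 for Idh3b (0.653). Pdha1 and Fh1 were under that mean.

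To ask whether the diets differed, ω-6 was compared with ω-3 in STZ mice. In all cells edgeR called 0 of 9 members, beside 0% of 18821 genes, and DESeq2 also called 0, beside 20 of the 18821 genes. Each of the 9 fold changes was above 0, beside 50.4% of all genes, at a median of 0.27 against 0.0034 over all genes. With sums thinned to equal depth, and without ω-6 mouse 2, 8 of the 9 were above 0. Suclg1 was 113 and 106 CPM on ω-3 and 134, 142 and 141 CPM on ω-6, groups without overlap, and was the 1 member with an unadjusted p under 0.05, beside 7.06% of the genes (0.35 ± 0.13, adjusted p = 0.682 by edgeR). Fh1 (0.37), Dlat (0.29), Idh3a (0.29), Idh3b (0.27), Cs (0.22), Mdh2 (0.21), Ogdh (0.11) and Pdha1 (0.017) had adjusted p-values of 0.682 to 0.983. For Idh3b, 121 and 124 CPM on ω-3 stood below 133, 157 and 152 CPM on ω-6, while for Cs, Mdh2 and Ogdh the groups overlapped.

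In rods edgeR called 0 of 9 members, beside 0.0158% of 12664 genes, and DESeq2 called 0, beside 28 of the 12664 genes. By edgeR, 2 members had an unadjusted p under 0.05, beside 10.9% of the genes. Suclg1 was 132 and 114 CPM on ω-3 and 157, 193 and 173 CPM on ω-6 (0.51 ± 0.16, adjusted p = 0.356), and Idh3b was 110 and 125 CPM against 142, 153 and 147 CPM (0.33 ± 0.15, adjusted p = 0.443). In both the ω-6 mice lay above the ω-3 mice. The other fold changes in rods were 0.26 for Cs, 0.21 for Idh3a, 0.19 for Mdh2 and Dlat, 0.10 for Ogdh, 0.024 for Fh1 and -0.04 for Pdha1. In cones, bipolar cells, amacrine cells and Müller glia edgeR called 0 members and 0% of the genes tested. DESeq2 also called 0 members there, beside 5 of 9160, 2 of 11942, 8 of 13121 and 2 of 7945 genes. By edgeR, 5, 1, 4 and 0 members had an unadjusted p under 0.05, beside 8.03%, 4.21%, 9.89% and 3.56% of the genes. The fold changes ran from -0.62 (Dlat) to 1.39 (Fh1) in cones, from -0.06 (Pdha1) to 0.92 (Fh1) in bipolar cells, from -0.08 (Pdha1) to 0.46 (Mdh2) in amacrine cells and from -0.56 (Ogdh) to 0.05 (Idh3b) in Müller glia. The medians were 0.35, 0.14, 0.18 and -0.05. A difference between classes in the response to diet was not shown for any member, with 0 of 8 called by edgeR, 1 at an unadjusted p under 0.05 (Mdh2), and 0% of 7104 genes called.

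None of the other lists held a called gene between the diets in all cells. The 15 import, chaperone and porin genes all had fold changes above 0, at a median of 0.21, and of the 12 other subunits and enzymes 10 did, at 0.15. Of all genes tested in all cells, 50.4% had a fold change above 0. Of the RNAs without poly(A) tails, 2 of 3 tested rose on ω-6 in rods, the 2 genes that make up the 0.0158%, and their part in the members' values was not tested.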

How the data were processed

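Single-cell RNA of 11 mouse retinas was measured with inDrop v3. With bcbio-nextgen 1.2.4, the authors read out barcodes and UMIs (umis), dropped barcodes under 500 reads and assigned reads with Rapmap to GRCm38 transcripts (GENCODE M23). What they deposited is the raw UMI count of each gene in each of 20067 cells. Total UMIs per mouse ran from 2565568 to 6517776, which limits the precision in small classes. No column was left without a sample.

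Cells with more than 300 genes and genes in more than 10 cells were clustered with Seurat 5.3.0 (R 4.3.3), with 2000 variable genes, 75 principal components and a resolution of 0.2, and the 25 clusters were named from canonical markers. No doublet caller was run. UMIs were summed per mouse and class, with at least 10 cells per mouse and class. STZ mice were set against PBS mice, and ω-6 against ω-3, each fit holding those groups alone, by edgeR 4.0.16 (quasi-likelihood test, TMM scaling, filterByExpr, Benjamini-Hochberg adjusted p under 0.05). The variation of the difference between classes was tested with the mouse as a block. CPM values used TMM library sizes over all 11 mice, except where the scale of the test is named. Levels of members in control and STZ rods and cones, given beside their tests, used the library sizes of the fit. Correlations used log2 CPM with a prior count of 2. Coordinates and transcript lengths (the longest principal protein-coding transcript) were those of GENCODE M21 (GRCm38), and 97.8% of the genes tested in all cells had a length. The scripts were tested on simulated data.

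Every member was named in each class for Phase I ROP and in all cells and rods for the diets, and of each other list up to 4 called genes per direction with the lowest adjusted p in all cells. Sdhc, Pdhb, Pdhx, Ogdhl and Dlst, and the values of members beyond this rule, were chosen after their values were seen. The members and lists were chosen with earlier results of these data known, and some genes of the lists are not reported here and were left out of their counts. The alternatives tried were no filter, median-of-ratios scaling, DESeq2 1.42.0, all 4 groups together, a replicate block, each mouse left out, cells with more than 500 genes, classes by marker score and sums thinned to equal depth. The sums over clusters led by their own markers were chosen after the clusters were seen.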

Additional observations from a re-analysis of the deposited data

Results flagged for a closer look

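The response to STZ was tested for a difference between rods, bipolar cells, amacrine cells and Müller glia. This test of the difference itself called 1 of 7 members, beside 18.7% of 4105 genes. The member called was Cs (adjusted p = 0.0431, edgeR). Its log2 fold change was 0.57 for rods, -0.25 for bipolar cells, -0.05 for amacrine cells and -0.08 for Müller glia. In rods the 3 STZ mice lay above the 3 control mice, while in the other 3 classes the groups overlapped. The call was lost when any 1 mouse was left out and with median-of-ratios scaling, with adjusted p-values of up to 0.247. Groups of 2 or 3 mice were not tested for a mouse far from the others.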

How the results depend on the processing

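The count of members called between STZ and control mice stayed within 1.5 times in all cells, bipolar cells and amacrine cells under every alternative run. In rods, 5 members became 2 with no filter, beside 4772 of 23260 genes. Sums thinned to equal depth left 3 (of 7 tested), beside 2201 of 5402 genes. Without 1 mouse the count ran from 1 to 6. The lowest was without STZ replicate 1 (3088 of 8963 genes), then 2 without replicate 2 (2897 of 8867) and 3 without replicate 3 (2618 of 8867). The highest was without control replicate 2 (3626 of 9218). In cones, 1 became 3 with classes by marker score, beside 1227 of 4236 genes. In Müller glia 0 became 1 with thinned sums, which held fewer UMIs, beside 362 of 3283 genes. The count of members called for a difference between classes went from 1 to 0 with median-of-ratios scaling and to 0 at both ends of the range when 1 mouse was left out. The causes were not tested. Between the diets 0 members were called under each alternative.

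Members that changed sign for STZ vs. control were Cs in all cells (0.013 with all 4 groups in 1 fit, 0.040 with no filter), Cs in amacrine cells (0.052 by marker score), Cs in Müller glia (0.059 thinned), Idh3b in Müller glia (0.012 with DESeq2), Dlat in cones (-0.24 by marker score) and Dlat in rods (-0.035 with more than 500 genes, -0.068 with clusters led by rod markers). For the diets they were Pdha1 in all cells (-0.020 thinned) and Fh1 in rods (-0.035 by marker score, -0.022 with clusters led by rod markers, -0.15 thinned). With 1 mouse left out, ranges that crossed 0 for STZ vs. control were -0.11 to 0.071 for Cs in all cells, -0.18 to 0.0089 in amacrine cells, -0.065 to 0.80 in cones and -0.20 to 0.049 in Müller glia. Idh3a (-0.46 to 0.22) and Idh3b (-0.18 to 0.36) crossed it in Müller glia, Dlat (-0.056 to 0.57) and Suclg1 (-1.06 to 0.039) in cones and Dlat (-0.022 to 0.26) in rods. For the diets they were Pdha1 in all cells (-0.091 to 0.14), and in rods Dlat (-0.0066 to 0.41), Fh1 (-0.063 to 0.091), Ogdh (-0.021 to 0.22) and Pdha1 (-0.23 to 0.082).

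Mice of the same number deviated together with r of -0.017, 0.102 and 0.145 for STZ and control, so the numbers were not taken as pairs. With a replicate block the calls were 6 (all cells), 5 (rods), 1 (cones), 5 (bipolar cells), 6 (amacrine cells) and 0 (Müller glia), and 0 between the diets, as without it. Over all genes it called 7783 of 15964, 3334 of 8425, 429 of 3125, 4510 of 10019, 4199 of 11315 and 580 of 4855 in these sums. Between the diets it called 75 of 18821 genes in all cells and 43 of 12664 in rods. The block turned the sign of Cs in all cells (0.0033), Idh3b in Müller glia (0.036) and, for the diets in rods, Fh1 (-0.0066) and Pdha1 (0.056). Depth limits the small sums, since control sums held as few as 1 UMI of a member in cones and 2 in rods and Müller glia.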
